A study of Homo sapiens with 4 samples.

Results

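The immediate early genes and MYC were described here from the transcripts listed in RIP-seq of MDA-MB-231 cells, a triple negative breast cancer cell line, that overexpressed 3x flag-YTHDC1. The members were the 10 genes FOS, FOSB, FOSL1, FOSL2, JUN, JUNB, JUND, EGR1, ATF3 and MYC, taken by gene name, and all 10 had rows. They held 40 of the 75165 listed transcripts and were 10 of 20298 listed genes. All 4 libraries came from cells carrying the lentiviral flag-YTHDC1 vector (MOI 4) that had been kept in 2 μg/ml puromycin for 4 days, and no library came from cells without the vector. In the Flag-YTHDC1 IP group (2 libraries), UV-crosslinked nuclear lysate with 500 μg of protein was precipitated with 5 μg of anti-Flag antibody. The input group (2 libraries) was lysate with 50 μg of protein that was kept aside, labelled as total RNA but taken from the same nuclear preparation. The cells overexpressed the tagged protein from a vector with a CMV promoter.

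JUN, FOSL2 and FOSL1 gave the most reads among the members and FOS and FOSB the fewest. The sum over the listed transcripts of a gene, termed the gene total, was 14801 normalized counts for JUN, 14544 for FOSL2 and 13059 for FOSL1, against 187 for FOS and 136 for FOSB. The value behind each total is the mean of a transcript's normalized count over the IP and input libraries together, as the authors gave it. No value per library and no spread between replicates was used, so no difference below carries a test, an SD or an interval, and the depth of each library is unknown. RNA that was plentiful in the lysate and RNA that was well recovered with YTHDC1 cannot be told apart in such a mean. A longer RNA also gives more reads, so totals of different genes are compared as reads, and per kilobase only where a length was at hand.

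Immediate early genes are switched on within minutes of a growth factor or stress signal, without new protein synthesis, and most of their mRNAs are short-lived. FOS and JUN proteins pair through leucine zippers to form the transcription factor AP-1, in which a FOS protein needs a JUN partner while JUN proteins can also pair among themselves. YTHDC1 is the nuclear reader of m6A, a methyl mark on adenosines of mRNA, and acts in splicing, nuclear export and RNA stability. MYC, also an early response gene in many cells, encodes a transcription factor that binds DNA together with MAX.

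Short sequence elements near the start of transcription are a known feature of this gene class, and those found in the members are shown to place the genes beside each other. RefSeq windows ran from 250 bases before to 50 bases after a start of a gene (GRCh38.p14). Of the 10 members, 8 had a window, and ATF3 had more than 1, which gave 9 windows. The core TGACGT of the cyclic AMP response element (CRE), searched on both strands, was in windows of 5 members, FOS, FOSB, FOSL2, EGR1 and JUND, and in 7.98% of all 35116 windows. The motif began 64 bases before the start in FOS, 60 in FOSB and 66 in FOSL2, and in EGR1 it lay on the other strand 67 bases before the start. On that strand there was another match 136 bases before the start in EGR1 and 87 in JUND. The full palindrome TGACGTCA contains the core. Among the members with a window it was in that of JUND alone, 200 bases before the start, and in 1.85% of all windows. The CArG box is the site of serum response factor. Among the members with a window it was in that of EGR1 alone, at 2 places, and in 1.29% of all windows. Sites further upstream were not searched, and FOSL1 and MYC had no window. Other members may therefore carry a site that was not seen. The TATA box letters TATAAA, also searched on both strands, were in windows of 4 members, FOS, FOSB, JUNB and ATF3, and in 11.5% of all windows. They began 33 bases before the start in FOS, 31 in JUNB and 30 in FOSB. In ATF3 they began 230 bases before a start inside the gene. That stretch, chr1:212614778-212614803, lies within the ATF3 span, chr1:212565407-212620777. These matches are letters in a window and were not measured for binding. Members are counted by gene, and the shares are of windows. Motifs were chosen with earlier results or these letters known, so the counts beside the shares are no test of enrichment. Each line gives the gene strand 5′ to 3′ with the motif in capitals:
FOS CRE core, chr14:75278754-75278779, plus strand: gttgagcccgTGACGTttacactcat
FOSB CRE core, chr19:45467926-45467951, plus strand: aaggggcgggTGACGTaagcaggggg
FOSL2 CRE core, chr2:28392782-28392807, plus strand: agtctggggtTGACGTgagtgaatcc
EGR1 CRE core, chr5:138465402-138465427, plus strand: atggccatgtACGTCAcgacggaggc
JUND full CRE, chr19:18281806-18281831, minus strand: ccgcccccaTGACGTCAacccacaag
EGR1 upstream CArG box, chr5:138465366-138465391, plus strand: cggtcctgCCATATTAGGgcttcctg
EGR1 downstream CArG box, chr5:138465388-138465413, plus strand: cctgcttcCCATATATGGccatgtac
FOS TATA box, chr14:75278785-75278810, plus strand: aaacgcttgtTATAAAagcagtggct
FOSB TATA box, chr19:45467956-45467981, plus strand: gtcccgggcaTATAAAtacaggctgg
JUNB TATA box, chr19:12791445-12791470, plus strand: actagcgcggTATAAAggcgtgtggc

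Among the FOS proteins, reads lay almost wholly with FOSL1 and FOSL2, which encode FRA1 and FRA2. FOSL2 held 52.1% and FOSL1 46.8% of the family's 27925 normalized counts, whereas FOS held 0.668% and FOSB 0.487%. These are shares of reads and not of molecules. FOSL2 (ENSG00000075426.12, chr2:28392858-28417317) exceeded 98.7% of all listed genes in its total, and FOSL1 (ENSG00000175592.9, chr11:65892049-65900545) exceeded 98.5%. FOS (ENSG00000170345.10, chr14:75278828-75282230), the founding member, exceeded 47.5%, and FOSB (ENSG00000125740.14, chr19:45467996-45475179) exceeded 43.7%. The median gene total of the table was 227 normalized counts, above both FOS and FOSB. Beside the 13631 genes with a protein-coding transcript, whose median was 624, FOS exceeded 27.4% and FOSB 23.2%, while FOSL1 and FOSL2 exceeded 97.8% and 98.2%.

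The JUN genes were all well covered. JUN (ENSG00000177606.7, chr1:58780791-58784047) exceeded 98.8% of all genes with its single listed transcript, JUN-201. JUNB (ENSG00000171223.6, chr19:12791486-12793315) had a total of 3511 normalized counts, also from a single transcript, JUNB-201, and exceeded 91.1% of genes. JUND (ENSG00000130522.6, chr19:18279694-18281622) had a total of 3200.2 and exceeded 90.2%. These genes have no introns, so the RefSeq span of each gene stands for the length of its RNA, at 3257 bases for JUN, 1830 for JUNB and 1929 for JUND. Per kilobase of this span, the mean over IP and input was 4544 normalized counts for JUN, 1919 for JUNB and 1659 for JUND. On this scale the value of JUN was 2.37 times that of JUNB and 2.74 times that of JUND, where the totals of reads gave 4.22 and 4.63. Length is corrected for in these ratios, but recovery with YTHDC1 is not. JUNB and JUND were close, with a ratio of 1.16 per kilobase, and without replicate values it is not known whether they differed.

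EGR1 and ATF3 lay between the abundant members and FOS and FOSB. EGR1 (ENSG00000120738.8, chr5:138465479-138469303), a zinc finger factor induced by serum response factor, had a total of 521 normalized counts from 1 transcript, EGR1-201, and exceeded 62.1% of all genes. Beside genes with a protein-coding transcript, EGR1 exceeded 45.9%, so it was above the median of the whole table and below that of coding genes. ATF3 (ENSG00000162772.17, chr1:212565407-212620777), a stress-induced factor that pairs with JUN proteins, had a total of 233 and exceeded 50.4% of all genes and 30.8% of those with a protein-coding transcript.

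MYC (ENSG00000136997.19) had a total of 6656 normalized counts over 8 listed transcripts and exceeded 96.0% of all genes, and 94.1% of those with a protein-coding transcript. Its reads came next in number after those of FOSL1 and before those of JUNB. In all, 6 of the 10 members were in the top 25.0% of the table by gene total, above 1106 normalized counts, and 8 were above the median gene. Together the members held 0.170% of the 33361205 normalized counts in the table.

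**Figure D1:**
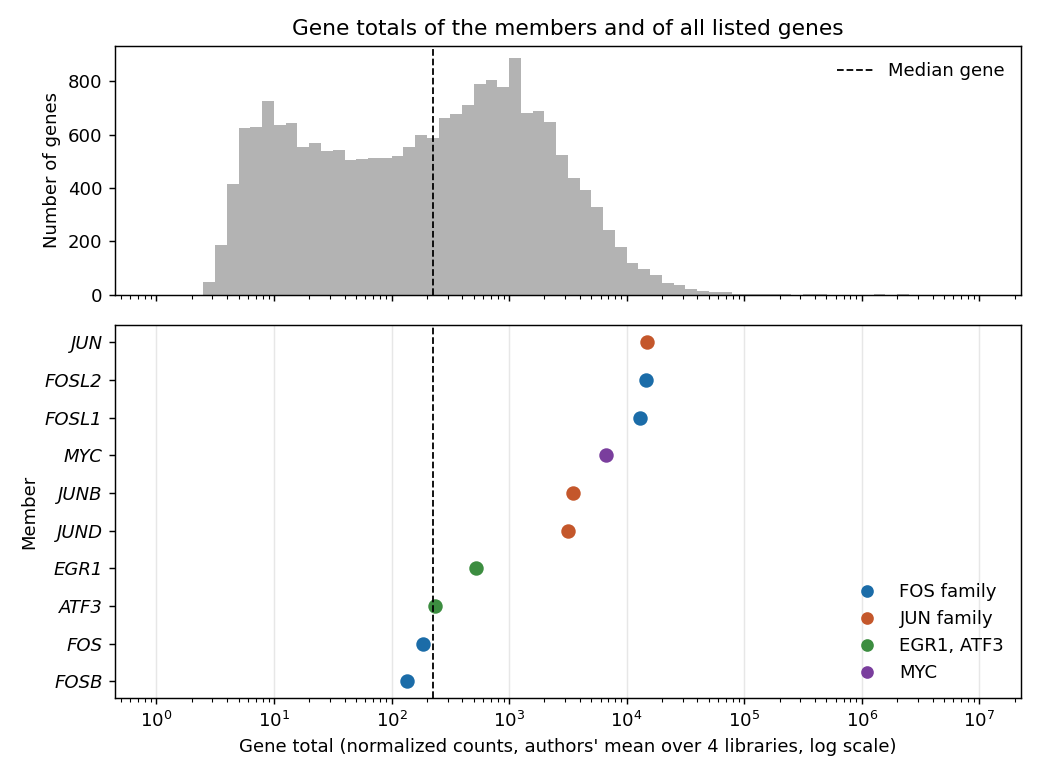
The upper panel counts all 20298 listed genes by gene total, in normalized counts on a log axis, and the lower panel places the 10 members on the same axis, with the dashed line at the median gene. FOS (187) and FOSB (136) lie left of the line at 227, ATF3 (233) lies just right of it, and JUN, FOSL2 and FOSL1 lie at 13059 normalized counts or more, far into the right tail.

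Reads were spread unevenly over the transcripts of the 7 members with at least 2 listed transcripts. RSEM, with which reads were assigned, shares out a read with more than 1 possible transcript by an estimate, so the split within a gene is less sure than its total. The split is also one of reads, which longer transcripts yield in greater number.

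FOSL2 and JUND were each carried by 1 transcript. FOSL2-201 (ENST00000264716.9) had a mean normalized count of 12888, which was 88.6% of the gene total, while FOSL2-203 had 1587 and FOSL2-202 and FOSL2-204 had 42.6 and 25.5. Of the 1781 genes with 4 listed transcripts, 90.1% had a lower share in their most abundant transcript, and the median share was 60.2%. JUND-201 (ENST00000252818.5) had 2870.3 normalized counts, a share of 89.7%, and JUND-202 had 329.9. The median share over the 2565 genes with 2 listed transcripts was 76.8%, and 74.3% of them had a lower share than JUND.

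FOSL1 was split over several transcripts of like size. FOSL1-201 (ENST00000312562.7) had 5578 normalized counts, FOSL1-204 (ENST00000532401.1) had 3996 and FOSL1-205 (ENST00000534222.1) had 2647, against 550.1 for FOSL1-203 and 288 for FOSL1-202. The share of FOSL1-201 was 42.7%, less than the 50.9% that FOSL1-204 and FOSL1-205 held together. Of the 1496 genes with 5 listed transcripts, 22.7% had a lower share in their most abundant transcript, and the median share was 55.6%.

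The MYC reads lay mainly in MYC-206 (ENST00000613283.2), with 4209 normalized counts or 63.2% of the total, and in MYC-205 (ENST00000524013.1), with 1152 or 17.3%. MYC-202 had 429, MYC-208 had 352, and MYC-204, annotated as a processed transcript without an open reading frame, had 345. The other 3, MYC-211, MYC-207 and MYC-201, had 97.0, 41.0 and 31.7. The share of MYC-206 was above the median of 45.8% over the 644 genes with 8 listed transcripts, and above that of 79.2% of them. FOSB also had 8 listed transcripts, and its most abundant transcript held a lower share, though of far fewer reads.

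FOSB-201 (ENST00000353609.8) had 51.2 normalized counts, 37.6% of its gene total. This was below the same median of 45.8% and above the lower quartile of 35.9%. The other 7 FOSB transcripts had between 7.10 and 19.7, and FOSB-207, annotated with a retained intron, had 18.0, or 13.2% of the total. In FOS, FOS-201 (ENST00000303562.9) had 94.6 normalized counts, a share of 50.7%, FOS-208 had 57.6 and FOS-203 had 24.0, while FOS-204 and FOS-206 had 5.52 and 4.91. At such counts the split rests on few reads, since the lowest mean normalized count of the whole table was 2.72. In ATF3, ATF3-202 (ENST00000341491.9) had 138 normalized counts, a share of 59.1%, and the other 4 had between 16.8 and 30.4, among them ATF3-208, with a retained intron, at 19.5.

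**Figure D2:**
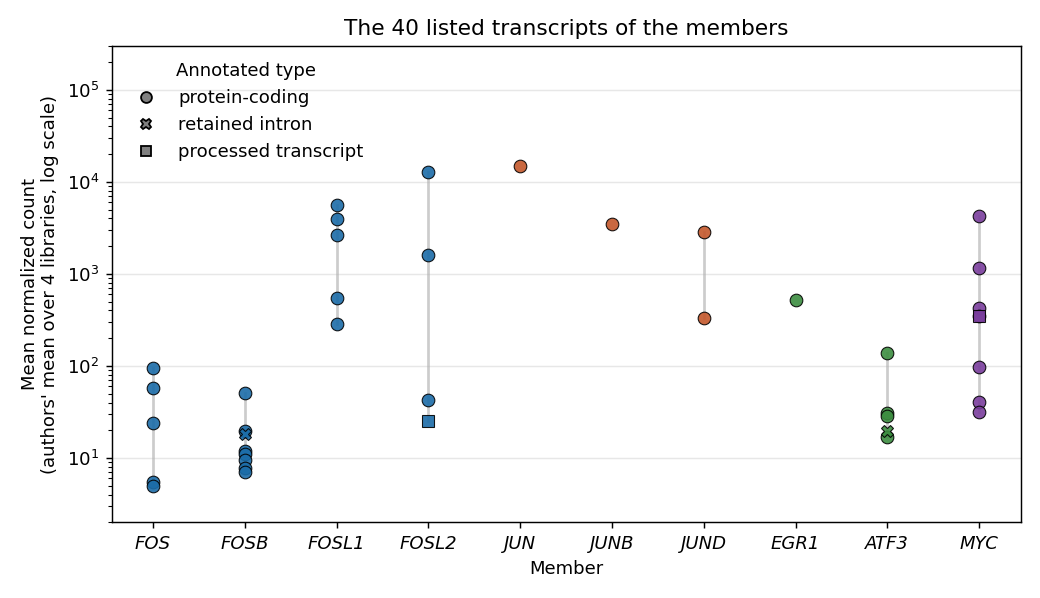
Each point is 1 of the 40 listed transcripts, placed by its mean normalized count on a log axis above its gene, with the marker showing the annotated type. The transcripts of FOS and FOSB all lie below 100 normalized counts, and all 5 of FOSL1 lie at 288 or more.

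By annotated type, 36 of the 40 transcripts (90.0%) were protein-coding, 2 had a retained intron and 2 were processed transcripts. None was annotated as a target of nonsense-mediated decay. Over the 65841 transcripts of protein-coding genes in the table, 59.6% were protein-coding, 17.2% had a retained intron and 9.86% were targets of nonsense-mediated decay. In each of the 10 members the most abundant transcript was protein-coding. This held by construction in FOS, FOSL1, JUN, JUNB, JUND and EGR1, whose listed transcripts were all protein-coding. The share over all genes was not computed. The retained-intron transcripts, FOSB-207 and ATF3-208, held 0.0660% of the members' reads, and the processed transcripts, FOSL2-204 and MYC-204, held 0.651%. Within its own gene, FOSB-207 held 13.2%, ATF3-208 8.37%, FOSL2-204 0.175% and MYC-204 5.18%. The pooled shares are low partly because FOSB and ATF3 gave few of the members' reads. JUN, JUNB and EGR1 were among the 37.7% of listed genes with 1 listed transcript. Of the 40 transcripts, 22 (55.0%) had a mean normalized count under 100, against 65.4% of all transcripts, and 5 (12.5%), all of FOS or FOSB, were under 10, against 17.2%.

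**Figure D3:**
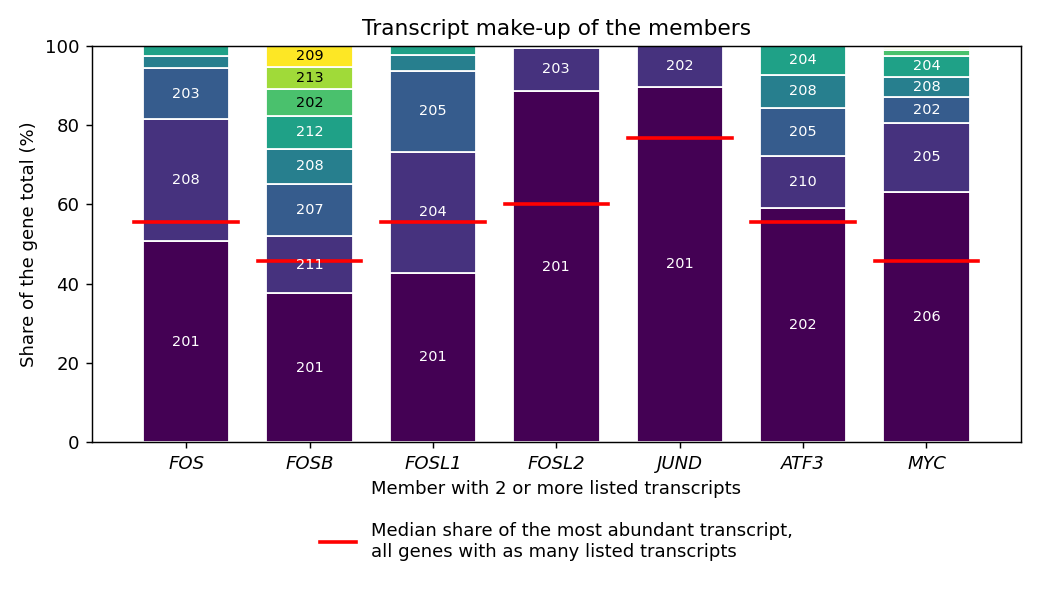
Each bar splits the gene total of a member into its transcripts, as a percentage on an axis from 0 to 100, with transcript numbers written in segments of over 5%, and the red line marks the median share of the most abundant transcript over all genes with as many listed transcripts. The lowest segment reaches 88.6% in FOSL2 and 89.7% in JUND, above the line, and 37.6% in FOSB and 42.7% in FOSL1, below it.

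Related genes were taken as lists, of which 3 were used. Of 24 other immediate early genes, 23 were listed and EGR4 was not. Their median gene total was 907 normalized counts, 10 of the 23 (43.5%) were in the top 25.0% of the table, and totals ran from 7.29 to 23367. The highest were CCN1, a secreted matrix-associated protein, at 23367, PLK2, a polo-like kinase, at 9617, and MCL1, which protects from apoptosis, at 9380.4. CCN1 thus gave more reads than any of the 10 members, whose median was 3356.

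All 18 genes taken as further possible dimer partners of FOS and JUN were listed. They included ATF1, CREB1 and CREM, and pairing with FOS or JUN was not measured here. The median of the 18 was 387 normalized counts, and 5 of them (27.8%) were in the top 25.0%. This median was below the 624 of genes with a protein-coding transcript. The median of the other immediate early genes, 907, was above 624, as was that of the MYC network, 1057. ATF4, the effector of the integrated stress response, had the highest total, at 5375, followed by the small MAF proteins MAFK, at 1757, and MAFF, at 1347. No gene of this list reached the totals of JUN, FOSL1 or FOSL2.

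In the MYC network, 11 of 12 genes were listed, MYCN was not, and the median was 1057 normalized counts, with 5 of the 11 (45.5%) in the top 25.0%. MAX, the partner that MYC needs to bind DNA, had a total of 761 over 11 transcripts, of which MAX-205 held 25.1%. The highest totals were those of MGA, a large MAX-binding repressor, at 5497, MLXIP, a glucose-sensing factor that pairs with MLX, at 3692, and MXD4, which competes with MYC for MAX, at 1647. MYC had more reads than each of them, and its relative MYCL had 39.9.

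**Figure D4:**
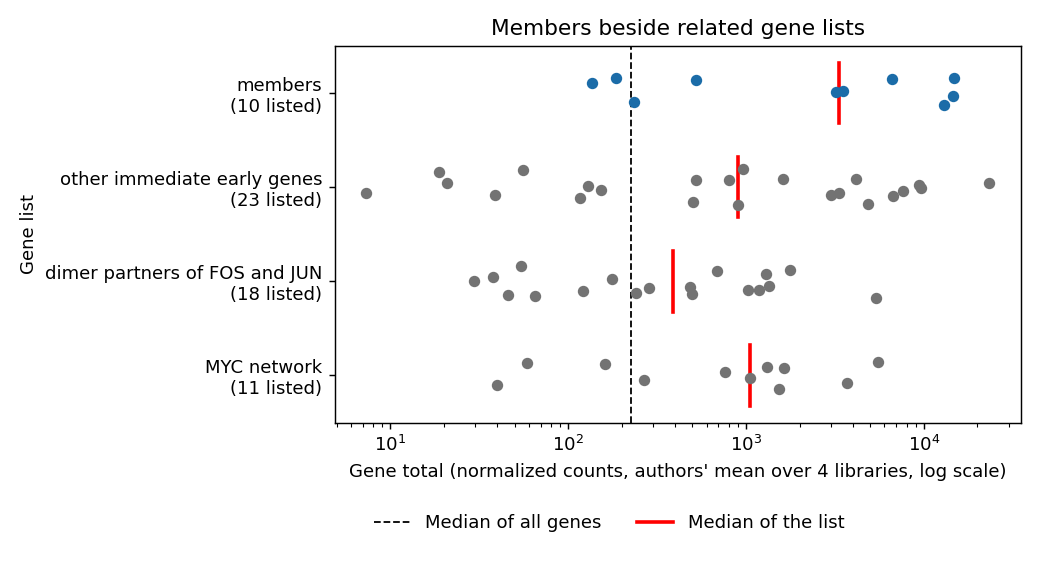
Each point is a listed gene placed by its gene total in normalized counts on a log axis, in rows for the 10 members and the lists of related genes, with small vertical shifts only to separate points. The red bars mark each list's median, at 3356, 907, 387 and 1057 from top to bottom, and the dashed line marks the median of all genes at 227. The median of genes with a protein-coding transcript, 624, is not drawn.

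The labelled cell line was checked by markers fixed for it. The mesenchymal markers VIM, AXL, CD44 and CAV1 were all listed, with gene totals from 7624 to 80785 normalized counts. Of the markers fixed as absent or low in triple negative, mesenchymal-like cells, the estrogen and progesterone receptor genes ESR1 and PGR were not listed. CDH1 had 10.0 normalized counts and EPCAM had 78.3. ERBB2, from the same set, was not low in reads, at 4303, which exceeded 92.9% of all genes. Its protein was not measured here. Of the markers of other cell types, ALB was not listed, and PTPRC, PECAM1 and COL1A1 had totals of 3.81, 102 and 705. These totals exceeded 0.798%, 40.4% and 67.1% of all genes, so COL1A1 was above the median gene. YTHDC1, the gene that was overexpressed, had a total of 55488 normalized counts, which exceeded 99.8% of all genes. Reads of the vector and of the cells' own gene cannot be told apart in this total.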

How the data were processed

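RIP-seq sequences the RNA that an antibody to a protein brings down, beside RNA of the lysate. Per the paper's methods and the submitters' processing notes, the authors mapped reads with STAR (version 2.7.2b) to a GENCODE v33 transcriptome (GRCh38), quantified transcripts with RSEM (version 1.2.31), removed transcripts that did not reach 5 reads in 50% of the samples or more, and applied RUVSeq and DESeq2. The strand setting and the number of RUVSeq factors were not given in the sources used here. The deposited signal value is the authors' mean normalized count per transcript, taken over all 4 libraries. The table's other numeric columns are the authors' own comparison of IP with input (fold change, its standard error, p-value and adjusted p-value). They were not used, so that comparison is not analysed here, and a planned test on counts per library was not run.

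Transcripts were matched by gene name, and 10 of 10 gene identifiers carried the same symbol in a separate table of gene names. Means were summed per gene identifier, and a gene's place is the percentage of genes with a lower total. Gene coordinates, spans and promoter windows came from RefSeq (GRCh38.p14). MYC and FOSL1 had no window in the promoter table used. Scripts ran in python 3.11.15 with pandas 2.3.3, numpy 2.4.6 and matplotlib 3.10.9 and were tested on simulated data. The members, lists and motifs were chosen with earlier results of these data, or the windows' letters, known. All 10 members were named with their transcripts, YTHDC1 as the expressed gene, and from each list the 3 genes with the highest totals and any name not listed. MAX and MYCL were added after their values were seen.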

Additional observations from a re-analysis of the deposited data

How the results depend on the processing

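No count per library was used, so tests, normalization and replicates left out could not be varied. No paired analysis was possible because the value used is a mean over all libraries. Of the 10 members, 8 were above the median gene, and 6 or 7 were in each alternative, with 7 by the most abundant transcript alone, 7 from protein-coding transcripts alone and 7 from transcripts of at least 10 normalized counts. The number was 6 from transcripts of at least 100 and 6 among genes with a protein-coding transcript. In 8 members the most abundant transcript held over 50% of the gene total, and 8 did so from protein-coding transcripts alone and from transcripts of at least 10. In JUN, JUNB and EGR1, with 1 listed transcript each, this share is 100% by construction. Of the 7 members with more transcripts it was 5, near the 67.8% of all 12648 such genes. Relative to its own size, the gene total that moved most was that of ATF3, from 233 to 138 with transcripts of at least 100, a setting in which FOS and FOSB had no transcript left. In normalized counts it was that of MYC, from 6656 to 6311 with protein-coding transcripts alone. Place moved most in FOSB, from 43.7% to 23.2% among genes with a protein-coding transcript.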

Other observations

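Some related genes, singled out after their values were seen, gave few reads. Of the EGR genes other than EGR1, EGR3 had a gene total of 18.7 normalized counts and EGR2 had 7.29, and EGR4 was not listed. The nuclear receptor genes NR4A1, NR4A2 and NR4A3, which are also induced early, had totals of 55.5, 154 and 38.5. BTG2, an antiproliferative early gene, had 20.8. Early genes with higher totals included IER3, at 7672, IER5, at 6723, CCN2, at 4854, and IER2, at 4163. DUSP1, a phosphatase that inactivates MAP kinases, had 966, and ZFP36, which binds AU-rich elements and promotes mRNA decay, had 522. These are reads not corrected for length, averaged over IP and input.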
